A study of Mus musculus with 16 samples.

Results

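Genes for surface receptors known from resident dermal macrophages, 9 in all, were followed in the ear skin of B6 mice: Cd163, Csf1r, Mrc1, Folr2 and 5 members of the Cd209 family (Cd209a, Cd209b, Cd209d, Cd209e and Cd209f). They were chosen by name, with earlier results of these data known, from a table of 48440 genes. All 9 were found, and all 9 were among the 17604 genes that passed the filter on low counts. The 16 libraries fall into 4 groups of 4: normal diet (ND) without treatment, high-fat diet (HFD) without treatment, ND with PMA and HFD with PMA. Whether libraries of different groups come from the same animals was not settled. The high-fat diet lasted 8 weeks, PMA was given at 200 ng per ear, and the ears were taken 24 hours after it. PMA is an inflammatory phorbol ester. The labels give neither age nor sex, and they do not say whether untreated ears received the solvent. The tissue is whole ear skin, so every value sums over all its cells, and fewer macrophages and less RNA per macrophage cannot be told apart.

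Resident macrophages of the dermis sit along blood vessels and among collagen fibres, where they take up dead cells, proteins, iron-bearing complexes and microbes through a set of surface receptors. Their survival depends on signals through the receptor encoded by Csf1r, whose ligands are the cytokines encoded by Csf1 and Il34. Cd163 encodes the scavenger receptor for haemoglobin bound to haptoglobin, Mrc1 the mannose receptor CD206, and Folr2 folate receptor beta. The Cd209 genes encode C-type lectins of the DC-SIGN family, which in mice has expanded into a cluster of closely related genes.

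The 5 Cd209 genes lie within the same stretch of chromosome 8, all on the minus strand, in GRCm38 coordinates of GENCODE M21. Cd209a spans 3743397 to 3748984, Cd209e 3847965 to 3854309, Cd209d 3871824 to 3878555, Cd209b 3917655 to 3926844, and Cd209f 4102787 to 4105835. Because related genes can share reads, their sequences were compared first. The 60-base stretch of coding sequence that is most alike in the 5 genes is printed here to show how far the genes differ even there. It begins at base 308 of the Cd209a coding sequence, and capitals mark bases that differ from Cd209a.
Cd209a: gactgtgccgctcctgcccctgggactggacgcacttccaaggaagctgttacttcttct
Cd209b: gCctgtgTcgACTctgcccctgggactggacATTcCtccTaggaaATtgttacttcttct
Cd209d: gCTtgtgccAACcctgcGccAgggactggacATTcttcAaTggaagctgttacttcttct
Cd209e: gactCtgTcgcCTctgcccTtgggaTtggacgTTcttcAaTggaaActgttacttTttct
Cd209f: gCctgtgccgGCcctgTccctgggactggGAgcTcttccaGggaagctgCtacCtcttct

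Of these 60 positions 33 are identical in all 5 genes, and each of the other genes differs from Cd209a at between 10 and 12. Over the whole aligned coding sequence, identity between the 5 genes ran from 66.7% for Cd209b and Cd209f to 78.6% for Cd209b and Cd209d. No stretch of 50 bases was identical between any 2 of the 5 genes, or between any of them and the neighbour Cd209c. Cd209f is the exception with respect to Cd209g, a neighbour outside the set. Their coding sequences are 89.2% identical, the longest identical run is 178 bases, and 29.8% of the 50-base windows of Cd209f also occur in Cd209g. Counts of Cd209f are therefore uncertain where reads could be assigned to either gene, and Cd209g itself lay between 1.64 and 10.9 CPM (counts scaled to the library size) across the 16 libraries.

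The stretches before the start sites of Cd209a and Cd209e, the 2 lectin genes that rose with PMA in ND mice, and of Cd209f, a lectin gene that was not called, are shown for comparison with that of Mrc1. Each is the stretch just upstream of the annotated start in RefSeq on GRCm38.p6, written 5′ to 3′ along the gene, and 8 of the 9 genes had an entry. Capitals mark exact matches, on either strand, to GAGGAA (the core bound by PU.1, a myeloid transcription factor), TGAGTCA (the AP-1 element) or CCGGAAG (an ETS-family core, added after the sequences had been seen). Cd209a is at chr8:3748985-3749234, minus strand. Cd209e is at chr8:3854287-3854536, minus strand. Cd209f is at chr8:4105765-4106014, minus strand. Mrc1 is at chr2:14229164-14229413, plus strand.
Cd209a: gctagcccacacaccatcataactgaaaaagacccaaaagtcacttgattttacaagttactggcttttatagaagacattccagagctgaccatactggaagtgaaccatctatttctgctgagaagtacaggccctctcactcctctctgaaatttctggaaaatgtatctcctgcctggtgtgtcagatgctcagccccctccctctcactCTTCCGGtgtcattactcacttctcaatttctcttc
Cd209e: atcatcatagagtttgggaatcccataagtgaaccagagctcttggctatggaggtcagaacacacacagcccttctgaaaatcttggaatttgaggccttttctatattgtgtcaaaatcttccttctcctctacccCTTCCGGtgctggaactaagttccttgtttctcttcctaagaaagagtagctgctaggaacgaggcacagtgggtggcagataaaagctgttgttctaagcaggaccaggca
Cd209f: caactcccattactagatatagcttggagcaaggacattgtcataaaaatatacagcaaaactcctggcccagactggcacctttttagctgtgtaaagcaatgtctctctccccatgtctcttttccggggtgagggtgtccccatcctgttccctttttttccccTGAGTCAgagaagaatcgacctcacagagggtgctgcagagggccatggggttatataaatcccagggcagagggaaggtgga
Mrc1: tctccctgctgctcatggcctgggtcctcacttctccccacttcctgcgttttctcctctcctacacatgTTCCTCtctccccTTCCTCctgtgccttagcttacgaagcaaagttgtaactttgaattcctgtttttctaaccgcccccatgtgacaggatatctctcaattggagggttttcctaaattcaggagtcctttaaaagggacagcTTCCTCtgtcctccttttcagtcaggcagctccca

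Mrc1 held 3 matches to GAGGAA and Cd209d held 1, while 28.3% of 32851 mouse promoter windows of 300 bases hold this core. The CCGGAAG core was found in Cd209a, Cd209b and Cd209e, at 36, 39 and 112 bases before the start, against 8.86% of all windows. The AP-1 element was found in Cd209f and in 1 of the 2 start windows of Folr2, against 5.2% of all windows. None of the 3 letter strings contains another. Cd209b, which holds the CCGGAAG core, did not pass with PMA, and a match describes letters only.

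Library totals ran from 7739487 to 15571389 counts, and replicate libraries correlated at 0.926 to 0.959 within groups on the log2 scale. Genes shared by most macrophages, such as Adgre1 and Cd68, were present in every library. By contrast, Cd5l was at 0 counts in all 16 libraries, Timd4 at 0 to 3.7 CPM and Vsig4 at 0 to 1.48 CPM. These 3 genes are also known from resident macrophages, and none of them passed the filter on low counts. The library codes in the labels begin with RHS for all 4 ND untreated libraries and for HFD untreated replicate 1, and with RHP for the other 11. The labels do not say what the prefixes stand for. The contrast between diets in PMA-treated skin is thus made within RHP. In ND mice the prefix coincides with treatment, so that their parts cannot be told apart. In untreated skin no RHP library is from an ND mouse, so no value within RHP can be given for the diet there. In the main edgeR fit, p-values set a difference against the spread between libraries within groups, estimated over all 4 groups and 16 libraries together.

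Cd163 lies on chromosome 6, 124304656 to 124330527, plus strand, and Mrc1 on chromosome 2, 14229392 to 14332057, plus strand, and neither shares exon bases with another annotated gene. Csf1r lies on chromosome 18, 61100598 to 61132149, plus strand, and 15.1% of its exon bases are also covered by Hmgxb3 on the opposite strand. Folr2 lies on chromosome 7, 101839988 to 101857194, minus strand, and 63.1% of its exon bases are also covered by the antisense gene Gm10602. The library method keeps no strand, so reads of Folr2 and of its antisense partner cannot be told apart there.

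Compared per length (CPM per kilobase of the deposited gene length), Csf1r was the most abundant of the 9 genes in untreated ND skin and Folr2 the least. The rank of Folr2 is uncertain, since how reads in its overlap with Gm10602 were counted is not given. Csf1r stood at 39.3 ± 7.63 (SD, n = 4) CPM per kilobase, with all 4 libraries above every library of the other genes. Cd209a at 14.7 ± 3.95, Cd163 at 12.5 ± 2.27, Mrc1 at 11.7 ± 2.76 and Cd209d at 9.24 ± 3.07 followed, and neighbours in this order overlapped. Cd209f at 7.99 ± 1.8, Cd209b at 5.93 ± 1.72 and Cd209e at 3.93 ± 1.54 came next, also overlapping in order, and Folr2 was at 1.15 ± 0.204. In ND skin with PMA the order changed: Cd209a at 43.8 ± 11.6 stood level with Csf1r at 43.5 ± 8.93, and Cd209e at 9.84 ± 2.3 had moved above Cd209d, Cd209f and Cd209b. In HFD skin with PMA, Cd209e at 2.31 ± 0.753 was again the lowest of the Cd209 genes, and Csf1r at 26.9 ± 4.8 again the highest of the 9.

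**Figure D1:**
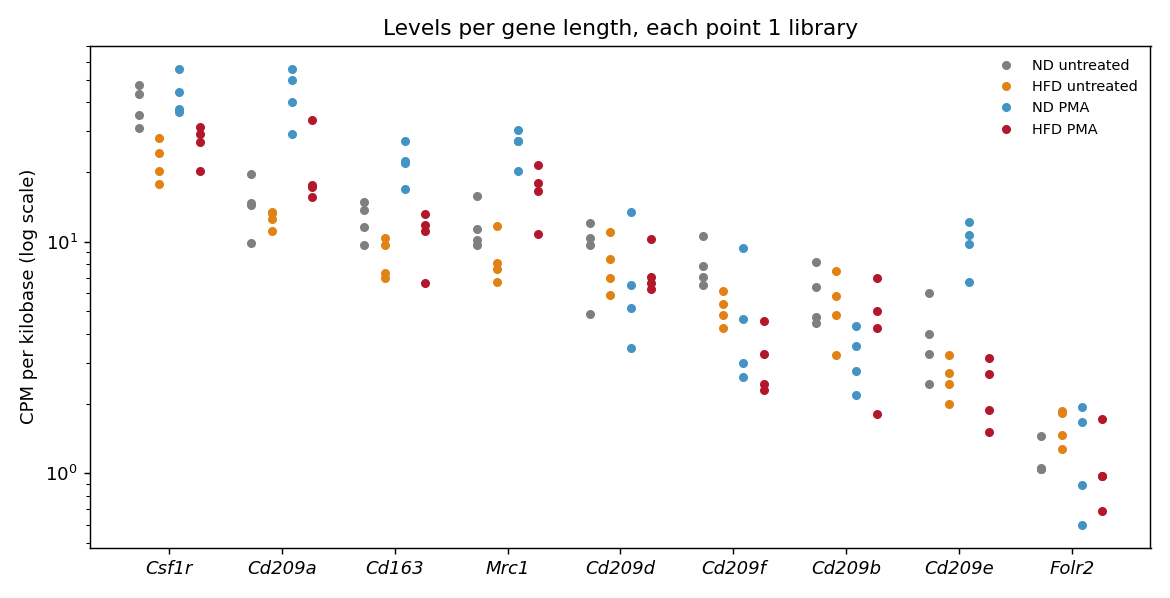
Level of each gene in CPM per kilobase on a log axis, 1 point per library, coloured by group and ordered by the mean in untreated ND skin. Csf1r is highest in untreated skin of both diets and Folr2 is lowest in all 4 groups, while Cd209a reaches the level of Csf1r in ND skin with PMA. How reads in the overlap of Folr2 with Gm10602 were counted is not given.

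The first comparison asks how the diet altered these receptors in inflamed skin. In PMA-treated ears, 4 of the 9 genes were lower in HFD than in ND mice: Cd209e by the most, then Cd209a, Cd163 and Csf1r. None was higher. Of all 17604 genes tested, 1.26% were called lower and 0.943% higher in this comparison, with a call meaning a Benjamini-Hochberg-adjusted p below 0.05 over all genes in edgeR's quasi-likelihood test. That is 221 lower and 166 higher, and RLE scaling gave 183 and 203. The median log2 fold change of the 9 genes was -0.66, against -0.03 over all genes, and 7 of the 9 had a negative value. Because the 9 genes were chosen with earlier results known, such counts and medians, here and below, describe them and do not test the set.

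Cd209e, with 624 bases the shortest coding sequence of the 5 lectins, read 22, 19.2, 17.6 and 12.1 CPM in the 4 ND libraries with PMA and 5.68, 2.7, 4.85 and 3.39 CPM in the 4 HFD libraries with PMA. Every HFD library lay below every ND library. Its log2 fold change was -2.09 ± 0.32 (SE), a level 4.26-fold lower in HFD (edgeR adjusted p = 0.00265), and it was called in all 26 alternative analyses.

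Cd163, the haemoglobin-haptoglobin receptor, read 121, 149, 119.8 and 92 CPM in ND mice with PMA and 60.8, 72.1, 64.3 and 36.2 CPM in HFD mice with PMA. Here too the groups did not overlap. Its log2 fold change was -1.04 ± 0.20, or 2.06-fold lower in HFD (edgeR adjusted p = 0.00928), and the call held in all 26 alternatives, with adjusted p up to 0.0395.

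Cd209a, a lectin gene also used as a marker of monocyte-derived dendritic cells, read 88.5, 78.9, 63.9 and 46.4 CPM in ND mice with PMA and 24.7, 27.3, 53.2 and 28 CPM in HFD mice with PMA. The groups overlapped through HFD PMA replicate 3, at 53.2 CPM, which lay above ND PMA replicate 4. The log2 fold change was -1.06 ± 0.24, or 2.08-fold lower in HFD (edgeR adjusted p = 0.0268). Without ND PMA replicate 1, 2 or 3, or HFD PMA replicate 1, 2 or 4, the call was lost, with edgeR adjusted p between 0.0515 and 0.103.

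Csf1r, the receptor on which macrophage survival depends, read 183, 273, 216 and 178 CPM in ND mice with PMA and 143, 153, 132 and 98.9 CPM in HFD mice with PMA. All HFD libraries were below all ND libraries, but by a small margin at the edges. The log2 fold change was -0.69 ± 0.18, or 1.61-fold lower in HFD (edgeR adjusted p = 0.0423). This call lay close to the threshold and was lost in 17 of 26 alternatives, with adjusted p up to 0.16 when ND PMA replicate 2 was left out.

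Mrc1, the mannose receptor, read 174, 174, 193 and 129 CPM in ND mice with PMA and 105, 136, 115 and 68.7 CPM in HFD mice with PMA. The groups overlapped between the highest HFD and the lowest ND library. Its log2 fold change of -0.66 ± 0.20 was close to that of Csf1r but did not pass (edgeR adjusted p = 0.101), whereas DESeq2 gave an adjusted p of 0.0496.

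The remaining genes did not pass and their groups overlapped. Cd209f read 5.97, 18.7, 5.2 and 9.25 CPM in ND mice with PMA and 4.81, 4.53, 9.08 and 6.52 CPM in HFD mice with PMA (log2 fold change -0.65 ± 0.35, edgeR adjusted p = 0.388). Without ND PMA replicate 2, at 18.7 CPM, the Cd209f value was -0.08 (edgeR adjusted p = 0.957). Cd209b read 9.12, 7.53, 4.62 and 5.86 CPM against 8.95, 3.82, 14.8 and 10.7 CPM (0.49 ± 0.36, edgeR adjusted p = 0.57). Cd209d read 5.97, 12.4, 4.77 and 3.19 CPM against 6.45, 6.12, 9.47 and 5.77 CPM (0.08 ± 0.37, edgeR adjusted p = 0.951). Folr2 lay between 0.925 and 2.99 CPM in these 8 libraries, which is 9 to 40 counts, and gave -0.22 ± 0.50 (edgeR adjusted p = 0.89).

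Only 2 of the 9 genes, Cd163 and Cd209e, were called in each analysis that left out 1 library. The count of called genes fell from 4 to 2 without ND PMA replicate 2 or 3, or without HFD PMA replicate 1, 2 or 4, and also when only the 8 PMA-treated libraries were fitted.

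**Figure D2:**
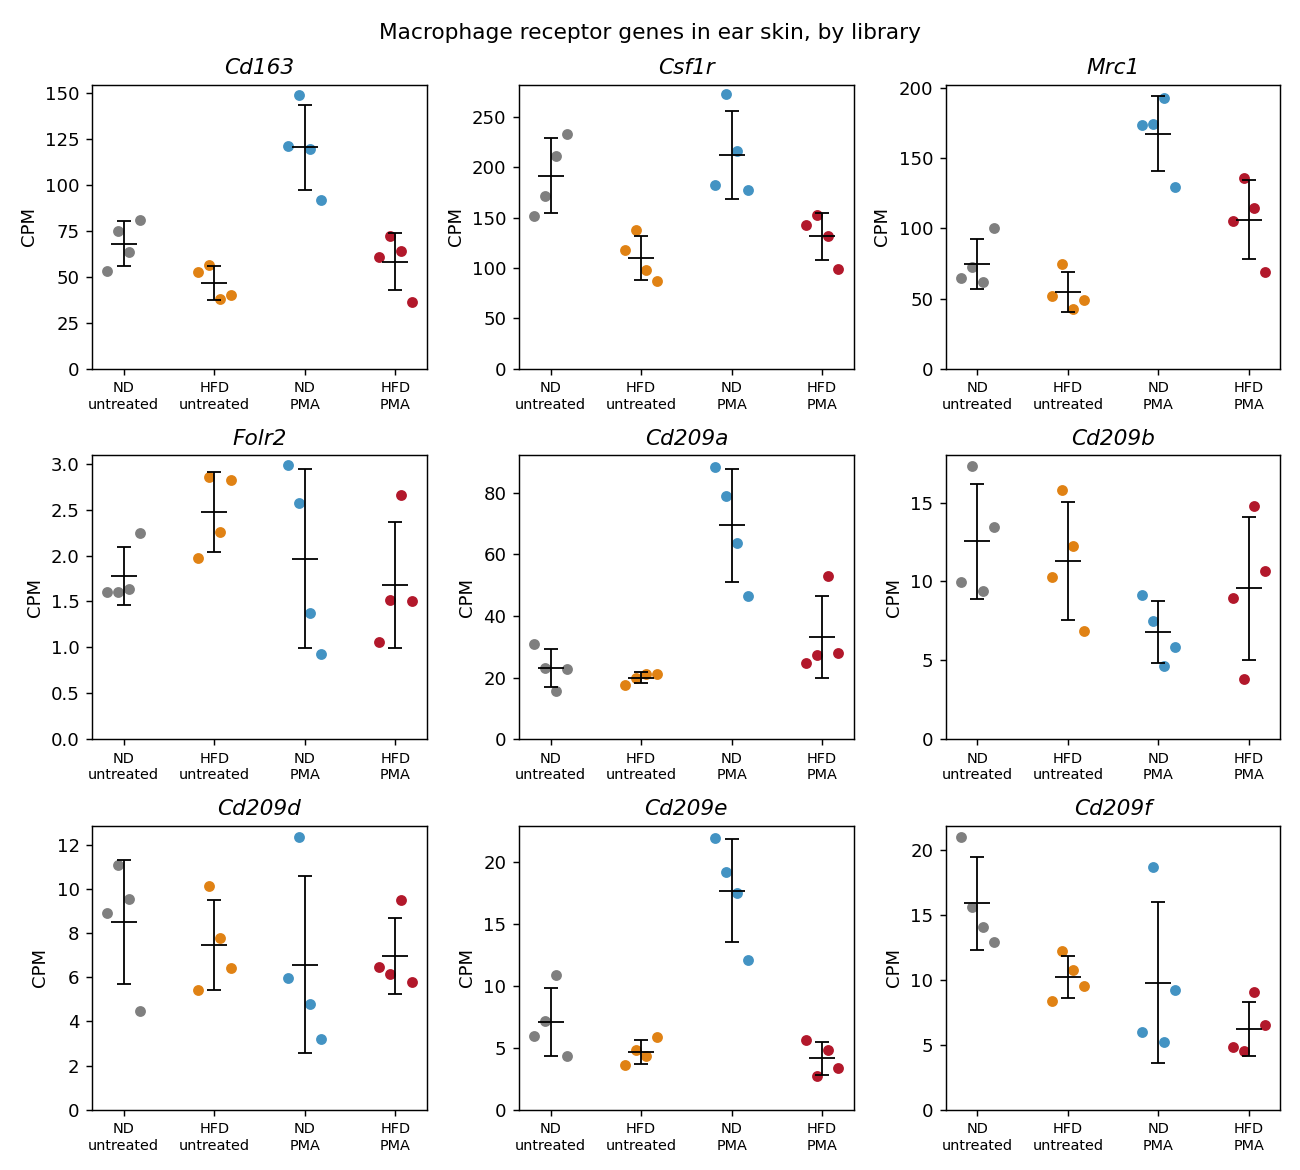
CPM of the 9 genes in each of the 16 libraries, by group, with linear axes that start at 0. Points are single libraries, and the bars give the mean and SD of 4 libraries. Cd163, Csf1r and Cd209e of HFD mice with PMA lie below all ND libraries with PMA, and Cd209a of ND mice with PMA lies above both untreated groups.

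In untreated skin the same diet comparison gave 1 called gene, Csf1r, which was lower in HFD mice. Of all genes 1.06% were called lower and 2.87% higher. The median log2 fold change of the 9 genes was -0.45, against -0.02 over all genes, and 8 of the 9 values were negative, but 8 of the 9 did not pass.

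Csf1r read 151.3, 172, 212 and 233 CPM in untreated ND mice and 118, 137, 98.5 and 87 CPM in untreated HFD mice. The groups did not overlap. Csf1r differed by -0.80 ± 0.18 on the log2 scale, or 1.74-fold lower in HFD (edgeR adjusted p = 0.0132). The call was lost without ND untreated replicate 3 or 4, or HFD untreated replicate 3 or 4 (adjusted p between 0.0567 and 0.0639), and with the library prefix as a covariate, where the log2 fold change was -0.71 and the edgeR adjusted p 0.366.

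Cd163 read 53.1, 74.9, 63.3 and 80.9 CPM in untreated ND mice and 52.9, 56.5, 37.9 and 40.0 CPM in untreated HFD mice. A single HFD library, replicate 2, lay above the lowest ND library. The log2 fold change of -0.54 ± 0.20 did not pass (edgeR adjusted p = 0.153).

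Mrc1 read 64.5, 72.4, 61.7 and 100.2 CPM against 51.8, 74.9, 42.9 and 48.7 CPM, with overlap (-0.45 ± 0.21, edgeR adjusted p = 0.272). Cd209f read 21, 15.6, 14 and 12.9 CPM against 8.4, 12.2, 10.8 and 9.56 CPM. These 2 groups did not overlap, yet the value of -0.63 ± 0.34 did not pass (edgeR adjusted p = 0.378). Cd209e read 5.92, 7.19, 10.9 and 4.38 CPM against 3.58, 4.87, 4.36 and 5.86 CPM (-0.60 ± 0.32, edgeR adjusted p = 0.355), and the other 4 genes gave values between -0.21 and 0.48.

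The second pair of comparisons asks how PMA altered the receptors within each diet, and it shares its groups with the diet comparisons above. In ND mice PMA raised 4 of the 9 genes, Cd209a, Cd209e, Mrc1 and Cd163, by between 1.77-fold and 3-fold, and lowered none. Of all genes 8.96% were called higher and 3.99% lower, which is 1577 and 702, against 1320 and 938 with upper-quartile scaling. The median over the 9 genes was only 0.15, against 0 over all genes, and the 5 genes that did not pass gave values from -0.89 to 0.15.

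Cd209a rose from 31, 23.3, 15.7 and 22.9 CPM in untreated ND mice to the 46.4 to 88.5 CPM given above. All PMA libraries were above all untreated ones. Its rise was 1.58 ± 0.25 on the log2 scale, or 3-fold (edgeR adjusted p = 0.000218). Cd209e rose 2.49-fold (log2 fold change 1.32 ± 0.31, edgeR adjusted p = 0.00685), Mrc1 2.24-fold (1.17 ± 0.21, adjusted p = 0.000648) and Cd163 1.77-fold (0.82 ± 0.20, adjusted p = 0.00806). In each of these 3 genes too, every ND library with PMA was above every untreated ND library.

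Csf1r did not pass: it averaged 192 ± 37.3 (SD, n = 4) CPM before and 212 ± 43.6 CPM after PMA in ND mice, with overlapping libraries (log2 fold change 0.15 ± 0.17, edgeR adjusted p = 0.669). The lectin gene Cd209b pointed the other way. It read 9.997, 17.3, 9.42 and 13.5 CPM in untreated ND mice and at most 9.12 CPM with PMA, so the groups did not overlap, but the log2 fold change of -0.89 ± 0.36 did not pass (edgeR adjusted p = 0.117). Cd209f gave -0.69 ± 0.34 (edgeR adjusted p = 0.215), and a single library decided that value: without ND PMA replicate 2, at 18.7 CPM, it was -1.26 with an adjusted p of 0.00982. Cd209d gave -0.36 ± 0.37 (edgeR adjusted p = 0.61).

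With the library prefix as a covariate, where HFD untreated replicate 1 is the sole RHS library outside the untreated ND group, none of the 4 calls held. The log2 fold changes were then 1.34 for Cd209a, 0.83 for Cd209e, 1.07 for Mrc1 and 1.06 for Cd163, with edgeR adjusted p of 0.168, 0.594, 0.193 and 0.169. Over all genes 453 were then called in place of 2279.

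In HFD mice PMA raised only Mrc1 among the 9 genes and lowered none. Of all genes 7.34% were called higher and 4.6% lower. The median over the 9 genes was -0.1, against -0.02 over all genes.

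Mrc1 rose 1.95-fold in HFD mice, from 51.8, 74.9, 42.9 and 48.7 CPM to 105, 136, 115 and 68.7 CPM. The lowest PMA library lay below the highest untreated library. The log2 fold change was 0.96 ± 0.21 (edgeR adjusted p = 0.00397), and the call held in all 26 alternatives, with adjusted p up to 0.0262.

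Cd209a went from 17.5, 19.8, 21.3 and 21.2 CPM to 24.7, 27.3, 53.2 and 28 CPM in HFD mice. All PMA libraries were above all untreated ones, but the log2 fold change of 0.74 ± 0.25 did not pass (edgeR adjusted p = 0.058). It passed with DESeq2 (adjusted p = 0.0333), with a stricter filter (0.0464), without ND PMA replicate 4 (0.0474) and without HFD PMA replicate 1 (0.0444), so the count of called genes is then 2. Without HFD PMA replicate 3, the library at 53.2 CPM, the Cd209a value fell to 0.41 (edgeR adjusted p = 0.291). Cd163 gave 0.32 ± 0.20 (edgeR adjusted p = 0.36), Csf1r 0.26 ± 0.18 (0.412) and Cd209e -0.17 ± 0.32 (0.82). The other 4 genes gave values between -0.72 and -0.1, none of which passed.

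Whether the response to PMA differed between diets was tested as the interaction, and none of the 9 genes passed. Over all genes 0% were called higher and 0.00568%, which is 1 gene, lower. The count at an unadjusted p below 0.05 was 815 of 17604 genes in edgeR, and DESeq2 called 22 genes. Cd209e had the lowest unadjusted p of the 9 genes, with a difference between the PMA effects of -1.49 ± 0.45 on the log2 scale (edgeR adjusted p = 0.73). Cd209a followed with -0.84 ± 0.35 (edgeR adjusted p = 0.999), and Cd163 gave -0.50 ± 0.28 (edgeR adjusted p = 0.999). So Cd209e passed in ND mice and not in HFD mice, but the difference between the diets was not established for it or for any other of the 9 genes.

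**Figure D3:**
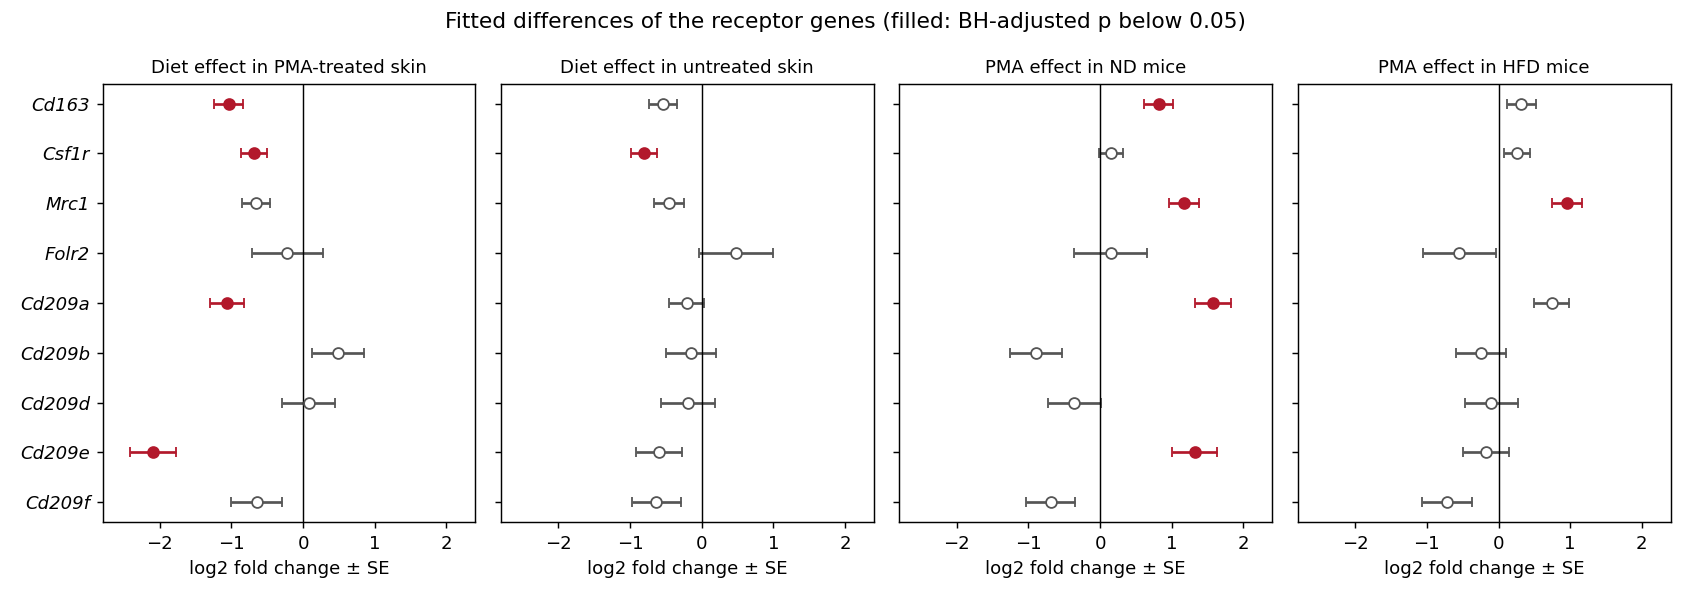
Fitted log2 fold change with its standard error for the 9 genes in the 4 comparisons, filled where the adjusted p is below 0.05. Filled points are 4 below 0 for diet in PMA-treated skin, 1 below 0 for diet in untreated skin, 4 above 0 for PMA in ND mice and 1 above 0 for PMA in HFD mice.

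Each receptor was also set against the summed CPM of 12 genes shared by most macrophages. This sum was 659 to 1100 CPM in ND and 459 to 791 CPM in HFD mice with PMA, and 396 to 519.5 and 383 to 452 CPM in the untreated groups. The values below are differences of log2 (gene CPM + 0.5) minus log2 of the sum, compared between 4 and 4 libraries by an exact two-sided permutation test. With 36 such tests and a smallest possible p of 0.0286, none passed after adjustment (lowest adjusted p = 0.103). An adjusted p below 0.05 could be reached only if most of the tests were at that smallest p, so no conclusion is drawn from this outcome.

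Between the diets in PMA-treated skin, Cd163 relative to the sum was -2.82, -2.88, -2.66 and -2.83 in ND mice and -3.37, -3.44, -3.48 and -3.64 in HFD mice. The groups did not overlap and differed by -0.69 (exact permutation p = 0.0286). Cd209e likewise did not overlap, at -5.26, -5.8, -5.39 and -5.71 in ND and -6.68, -7.95, -7.07 and -6.89 in HFD mice (difference -1.61, exact permutation p = 0.0286). For Cd209a the difference was -0.7 (exact permutation p = 0.0857), for Csf1r -0.31 (p = 0.0857) and for Mrc1 -0.3 (p = 0.114).

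Between PMA and no treatment in ND mice, Cd209a relative to the sum differed by 0.71, without overlap (exact permutation p = 0.0286). Cd209b differed by -1.69, Cd209f by -1.67, Folr2 by -0.82 and Csf1r by -0.71, in each case with p = 0.0286 in the exact permutation test. Cd163, which rose in CPM, differed by -0.04 relative to the sum (exact permutation p = 0.8). All these values depend on the sum chosen, since another sum shifts every gene of a comparison by the same amount. For Cd163 the value was, in choices made after seeing the data, 0.33 without Lgmn, the most abundant of the 12 genes by CPM. With the mean log2 of the 12 genes it was 0.22. Against Csf1r in place of the sum it was 0.67.

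**Figure D4:**
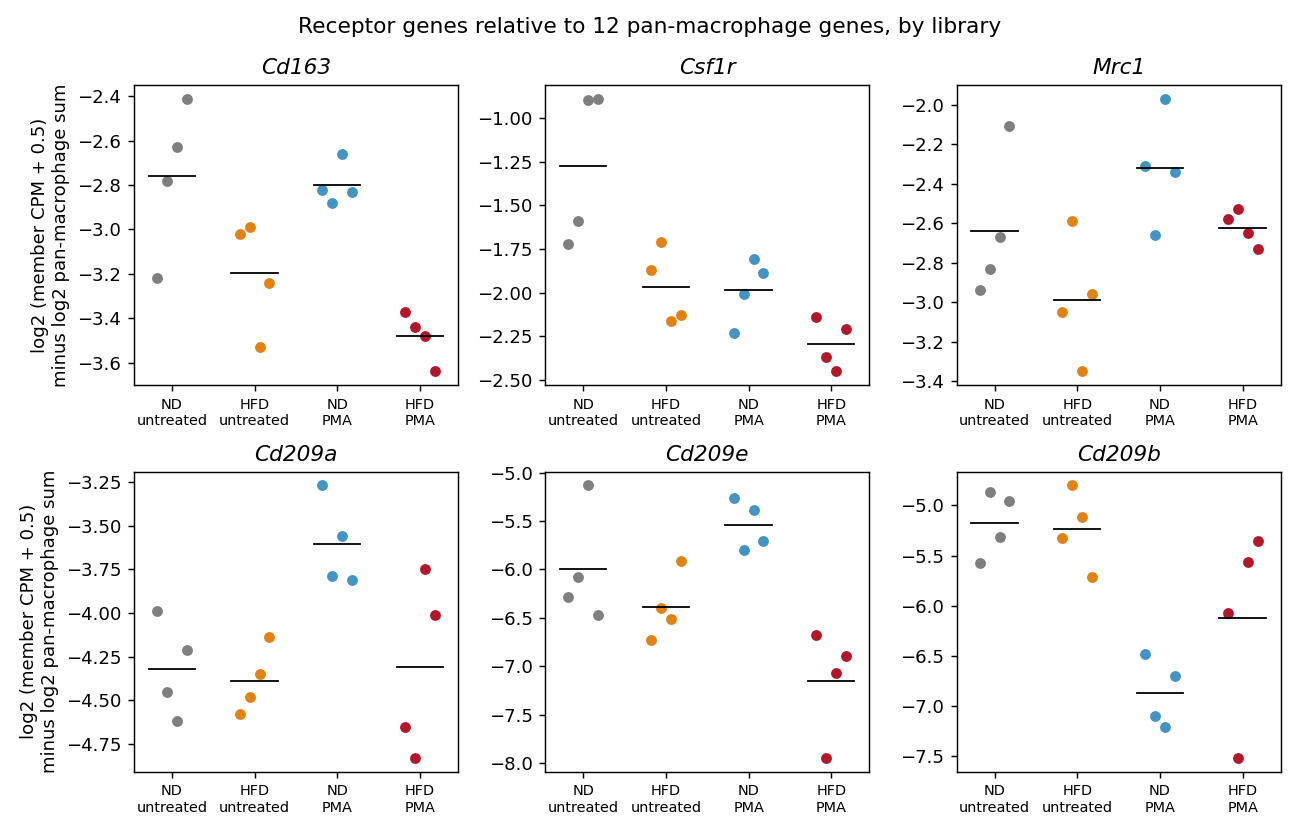
Log2 level of 6 of the genes relative to the summed CPM of 12 pan-macrophage genes, 1 point per library, with the group mean as a line. Cd163 and Cd209e are lower in all HFD libraries with PMA than in all ND libraries with PMA, and Cd209b is lower in all ND libraries with PMA than in untreated ND libraries.

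The ligands and regulators of Csf1r were examined as a list of 12 genes. In PMA-treated skin 1 of the 12 was lower in HFD mice, Il34, the ligand made by keratinocytes, and none was higher. Il34 read 73.3, 92.8, 58.9 and 79.3 CPM in ND mice with PMA and 40.7, 45, 49.3 and 55.8 CPM in HFD mice with PMA, without overlap (log2 fold change -0.67 ± 0.14, edgeR adjusted p = 0.0148). This call was lost without ND PMA replicate 2 or HFD PMA replicate 1 or 2 (-0.52, -0.56 and -0.63, adjusted p up to 0.0756) and in the fit of the 8 PMA-treated libraries alone (-0.63, adjusted p = 0.102). Csf1, the other ligand, gave 0.13 ± 0.19 (edgeR adjusted p = 0.821).

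Il34 was also lower with diet in untreated skin, at 66, 71.7, 79.9 and 77.1 CPM in HFD against 103, 111, 112 and 95.6 CPM in ND mice (-0.52 ± 0.14, edgeR adjusted p = 0.0404). That call held in 12 of 25 alternatives. With PMA Il34 fell in both diets, by 0.47 on the log2 scale in ND mice (SE 0.14, edgeR adjusted p = 0.0279, lost in 6 of 25 alternatives) and by 0.63 in HFD mice (SE 0.14, adjusted p = 0.00527, called in all 26). Csf1r itself did not pass with PMA in either diet. PMA raised 7 of the 12 genes in ND and 4 of the 12 in HFD mice, among them Spi1, which encodes PU.1 (1.00 ± 0.22 in ND, edgeR adjusted p = 0.00454, and 0.80 ± 0.22 in HFD mice, adjusted p = 0.0228). The Spi1 call in HFD mice was lost in 4 of 26 alternatives: without HFD untreated replicate 3 or 4, without HFD PMA replicate 2, and within RHP libraries (edgeR adjusted p between 0.072 and 0.135). With the library prefix as a covariate, the PMA calls in ND mice of Spi1 and Il34, and of Hp, Slc11a1, Slc19a1, Shmt2, Clec7a, Cd36, Ccl24, Selenop and Apoe described next, were all lost.

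Haem and iron genes, which handle the cargo of Cd163, were a list of 12. None was called with diet in PMA-treated skin, and 1 was lower in untreated HFD skin. PMA raised 2 of them in ND and 3 in HFD mice, and lowered none. Hp, which encodes haptoglobin, rose by 1.42 ± 0.34 in ND (edgeR adjusted p = 0.00969) and 1.64 ± 0.34 on the log2 scale in HFD mice (adjusted p = 0.00433). Slc11a1, a phagosomal metal transporter, rose by 1.40 ± 0.42 (edgeR adjusted p = 0.0313) and 2.15 ± 0.43 (adjusted p = 0.00224). In ND mice the Slc11a1 call was also lost without any filter, without ND untreated replicate 1, 3 or 4 and without ND PMA replicate 2, where it was 1.01 (edgeR adjusted p = 0.137). The Hp call in ND mice was lost without ND PMA replicate 2 (1.06, edgeR adjusted p = 0.051).

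Folate genes, a list of 10 set beside Folr2, showed no diet call in either skin. PMA raised 3 of the 10 in each diet, among them Slc19a1, the reduced folate carrier (1.11 ± 0.20 on the log2 scale in ND, edgeR adjusted p = 0.000751) and Shmt2, a mitochondrial enzyme of 1-carbon metabolism (1.10 ± 0.16 in ND, adjusted p = 8.9e-05). Folr2 itself gave 0.15 ± 0.51 in ND and -0.55 ± 0.51 in HFD mice.

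Other lectins and scavenger receptors were a list of 14, of which 10 passed the filter on low counts. None of the 10 was called with diet in either skin. With PMA 2 rose and 2 fell in ND, and 4 rose and 2 fell in HFD mice. Clec7a, which encodes the beta-glucan receptor dectin-1, rose by 2.01 ± 0.44 on the log2 scale in ND (edgeR adjusted p = 0.00406) and by 3.34 ± 0.46 in HFD mice (adjusted p = 9.1e-05). The scavenger receptor gene Cd36 fell by 0.65 in ND (SE 0.17, edgeR adjusted p = 0.0166) and by 0.72 in HFD mice (SE 0.17, adjusted p = 0.00986).

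A further list held 14 genes of resident macrophages, Vsig4 included, of which the other 13 passed the filter. In PMA-treated skin 2 of these were lower with diet, Ccl24 and Retnla. Retnla was low in level, at 2.96 to 8.62 CPM in ND and 0.477 to 1.63 CPM in HFD mice with PMA. Ccl24, a chemokine gene, read 14.9, 17.3, 10.04 and 6.89 CPM in ND mice with PMA and 2.31, 3.5, 2.58 and 2.76 CPM in HFD mice with PMA, without overlap. Its log2 fold change was -2.14 ± 0.35 (edgeR adjusted p = 0.00378, called in all 26 alternatives), close to the -2.09 of Cd209e. With PMA in ND mice 2 of the 13 rose and 2 fell, with a median of -0.28. Ccl24 rose by 1.87 ± 0.35 on the log2 scale (edgeR adjusted p = 0.00106), while Selenop fell by 0.73 (SE 0.11, adjusted p = 0.000144) and Apoe by 0.66 (SE 0.17, adjusted p = 0.0118). Selenop encodes a selenium transport protein and Apoe a lipid carrier. In HFD mice none of the 13 rose and the same 2 genes fell, Selenop by 0.58 (SE 0.11, edgeR adjusted p = 0.0015) and Apoe by 0.61 (SE 0.17, adjusted p = 0.0217). The Apoe call in HFD mice was lost without HFD PMA replicate 1 or 2. Lyve1, a hyaluronan receptor gene of perivascular macrophages and lymphatic vessels, did not pass in the 4 comparisons and gave 0.03 ± 0.21 for diet in PMA-treated skin.

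Markers of other cells moved in the same libraries. Of the 12 pan-macrophage genes, 1 was lower with diet in PMA-treated skin, Lgmn (-0.61 ± 0.15, edgeR adjusted p = 0.0324, held in 13 of 26 alternatives), and 4 rose with PMA in each diet. Monocyte genes rose with PMA, 6 of 10 in ND and 8 of 10 in HFD mice, led among the better expressed by Chil3 at 4.69 ± 0.72 and 5.72 ± 0.80 on the log2 scale (edgeR adjusted p = 0.000445 and 0.000286). With diet in PMA-treated skin 1 of 10 monocyte genes was lower, Fn1, which other cells of the skin also express, at 426 to 731 CPM in ND and 195 to 392 CPM in HFD mice. The summed CPM of the 10 genes, to which Fn1 and Lyz2 contribute most, was 970.2 to 1489 in ND and 708 to 1111 in HFD mice, while Lyz2 read 357 to 491 and 320 to 490 CPM. Neutrophil genes, of which 5 of 8 passed the filter, rose in 2 of 5 with PMA in ND and 5 of 5 in HFD mice, and none was called with diet in PMA-treated skin. In untreated skin 1 of the 5, Cxcr2, was higher in HFD mice, at 16.6 to 22.5 CPM against 4.07 to 9.71 CPM in ND mice. That call held in all 25 alternatives, while the other 4 genes had negative values and were not called. Dendritic cell genes showed no diet call among 8 tested.

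Structural cells also differed between the diets. In PMA-treated skin 3 of 6 fibroblast genes were lower and 1 of 6 keratinocyte genes was higher in HFD mice, and in untreated skin 4 of 6 and 4 of 6. These counts were fragile: in PMA-treated skin Col3a1 lost its call in 20 of 26 alternatives and Col1a1 in 12, both without ND PMA replicate 2, which left Col1a2. In untreated skin the library prefix as a covariate left none of the 4 fibroblast genes and 1 of the 4 keratinocyte genes, Krt1. Summed fibroblast CPM was 6312 to 8882 in ND and 3794 to 6004 in HFD mice with PMA, and summed keratinocyte CPM 19595 to 22983 and 25187 to 28340.3, and neither pair of groups overlapped. Mrc1 is also expressed by lymphatic endothelium, whose 6 marker genes summed to 153 to 238 CPM in ND and 122 to 143 CPM in HFD mice with PMA. Of the 6, Pdpn alone did not overlap between the diets, at 70.2 to 126 and 39.4 to 69.3 CPM, and its call was lost in 12 of 26 alternatives. Ccl21a read 23.5 to 54.5 CPM in ND and 31.6 to 50.2 CPM in HFD mice with PMA, and Prox1, a defining gene of lymphatic endothelium, was at 0 in HFD PMA replicate 4. The part of these cell types in the differences of the 9 receptors was not tested.

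Genes whose log2 CPM across the 16 libraries was most like that of each receptor were sought among 11517 genes, as a description only, since the groups themselves set much of this likeness. Cd163 was most like Arf2 (r = 0.915, rho = 0.879, and 0.666 for deviations from the group means) and Tgfbi (r = 0.911, rho = 0.897, 0.59). Csf1r was most like Axl, a receptor kinase gene for dead-cell uptake (r = 0.936, rho = 0.944, 0.839), and Psap (r = 0.934, rho = 0.956, 0.828). Mrc1 was most like Tifab (r = 0.952, rho = 0.95, 0.824), and both Mrc1 and Cd209a had Lgmn among their closest 5 genes (r = 0.937 and 0.879). Cd209a was closest to the chemokine gene Ccl2 (r = 0.899, rho = 0.824, 0.72) and Cd209e to Prnp (r = 0.912, rho = 0.835, 0.582).

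The other 3 lectins lay near other genes. Cd209b was closest to Plcxd2 (r = 0.849, rho = 0.841, and 0.828 within groups) and had the adipocyte gene Lep among its closest 5 (r = 0.767, rho = 0.659, 0.663). Cd209d was closest to the complement gene C1qa (r = 0.837, rho = 0.818, 0.858), and Cd209f to Sema3b (r = 0.917, rho = 0.871, 0.873), with Pi16, a fibroblast gene, among its closest 5 (r = 0.885, rho = 0.894, 0.748).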

How the data were processed

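Ear skin RNA of B6 mice was made into 16 libraries, 4 in each of 4 groups. Per the labels' protocols, these used SMART-Seq2 cDNA, a method without strand or molecular identifiers. The authors deposited whole-number counts per gene with a gene length. The submitters' processing notes name STAR 2.3, featureCounts 1.5, GRCm38 and mm10 (settings and annotation: not given in the sources used here). Members and gene lists were chosen with earlier results of these data known. Groups came from the titles, and every column matched 1 sample.

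filterByExpr by group, with a minimum count of 10 and a minimum total of 15, kept 17604 of 48440 genes. After TMM scaling, edgeR 4.0.16 in R 4.3.3 fitted 4 group means over 16 libraries by its robust quasi-likelihood method, with Benjamini-Hochberg adjustment over all genes tested and a threshold of 0.05. Each SE was derived from the F statistic. The procedure was tested on simulated data.

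Every member is named. In each other list, up to 4 called genes with a mean of at least 5 CPM and the greatest change could be named, and the 5 genes most like a member by Pearson's r. Csf1, Lyve1, Timd4, Vsig4, Cd5l, Adgre1, Cd68, Retnla, Prox1, Lyz2 and Cd209g were named after their values were seen. Ratios were compared by exact permutation tests. The alternatives were DESeq2 1.42.0, 2 other scalings (RLE, upper-quartile), no filter or a stricter 1, mitochondrial genes left out, 8 libraries only, a replicate block, the library prefix as covariate, RHP libraries only, and each library left out. Totals ran from 7739487 to 15571389 counts, and PCR duplicates are not separated from molecules. Promoters are from RefSeq (GRCm38.p6) and coding sequences from GENCODE M21, aligned with Biopython 1.88.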

Additional observations from a re-analysis of the deposited data

Results flagged for a closer look

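Each group of 4 libraries was examined for a library that stands apart from the other 3, for 9 genes in 4 groups, which makes 36 sets; chance alone gives about 1 in 20. Cd209a in HFD PMA replicate 3 was at 53.2 CPM, while the other 3 HFD libraries with PMA were at 24.7 to 28 CPM. Folr2 in ND untreated replicate 4 was at 2.24 CPM, while the other 3 were at 1.6 to 1.63 CPM, a difference that rests on 20 against 13 to 17 counts.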

How the results depend on the processing

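Of 1129 values of single receptor genes under the alternatives, 1065 kept their direction and their side of the threshold, 33 lost a call, 6 gained one and 25 changed sign; all sign changes were in values that had not passed, and their cause was not tested. The count of called receptors for PMA in HFD mice was 2 with DESeq2 and 2 with the stricter filter, in place of 1, and 1 to 2 when single libraries were left out. For diet in PMA-treated skin it was 2 with the 8 libraries alone, 5 with DESeq2, in place of 4, and 2 to 4 with single libraries left out. For diet in untreated skin it was 0 with the library prefix as covariate, in place of 1, and 0 to 1 with single libraries left out, and for PMA in ND mice 0 with that covariate and 5 without ND PMA replicate 2, in place of 4. Whether the replicate numbers pair the libraries was not settled. Deviations of same-numbered libraries correlated at -0.067 to 0.202, above 0.1 in 2 of 24 pairs, and 8 of 24 matched their own number best. Both values above 0.1, 0.202 for replicate 1 and 0.116 for replicate 3, joined untreated and PMA-treated HFD libraries. Between untreated and PMA-treated ND libraries the values were 0.083, -0.061, -0.066 and 0.069. With the replicate number as a block the counts of called receptors did not change (4, 1, 4, 1 and 0), and the Cd209f interaction, -0.02 without the block, was 0.1. That Cd209f value was 0.01 with DESeq2, 0.01 with RLE scaling, 0.26 with the prefix covariate, and -0.24 to 0.54 with single libraries left out. Folr2 with PMA in ND mice was -0.26 with the prefix covariate. With single libraries left out, Folr2 ran from -0.11 to 0.38 there and from -0.49 to 0.05 for diet in PMA-treated skin, where Cd209d ran from -0.15 to 0.63. Cd209b ran from -0.35 to 0.06 for diet in untreated skin and from -0.55 to 0 for PMA in HFD mice, and Cd209d from -0.29 to 0.07 for PMA in HFD mice. Csf1r ran from -0.03 to 0.25 for PMA in ND mice, and the Mrc1 interaction from -0.38 to 0.01. Relative to the macrophage sum, Mrc1 and Cd209f for diet in PMA-treated skin turned to 0.01 and 0.2 with Csf1r as denominator, and Cd209f ran from -0.3 to 0.12 with single libraries left out. Cd163 for PMA in ND mice was 0.67 with Csf1r as denominator, 0.33 without Lgmn and 0.22 with the mean log2, and ran from -0.19 to 0.08. Over all genes, DESeq2 called 850 genes in place of 387 for diet in PMA-treated skin and 1149 in place of 691 in untreated skin, and 22 in place of 1 for the interaction. The 8 libraries alone gave 175 for diet in PMA-treated skin, and the prefix covariate gave 179 for diet in untreated skin and 453 in place of 2279 for PMA in ND mice. RLE scaling split the diet calls in PMA-treated skin into 203 higher and 183 lower, in place of 166 and 221. Folr2 rests on the fewest counts, 9 to 40 per library, and how reads in its overlap with Gm10602 were counted is not given.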
